A study of Mus musculus with 16 samples.

Results

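The 10 genes described here are imprinted genes with known roles in the quiescence and growth control of stem cells. They are named by symbol as H19, Igf2, Igf2r, Meg3, Rian, Mirg, Dlk1, Grb10, Ndn and Plagl1, and each was matched to 1 Ensembl mouse gene. All 10 were present in both deposited tables, among 50686 genes. RNA was measured in haematopoietic stem cells (HSCs), the bone marrow cells that sustain blood formation, from C57BL/6J mice with no engineered allele named in the labels. Mice received injections into the peritoneum every 48 h over 85 days, with 4 libraries in each of 4 groups. The vehicle group received 20% DMSO and 40% polyethylene glycol in PBS, the palbociclib group 30.4 mg/kg of palbociclib in that vehicle, the rapamycin group 6.4 mg/kg of rapamycin in it, and the combination group both drugs at these doses. Palbociclib is an inhibitor of CDK4 and CDK6, the kinases of the G1 phase, and rapamycin is an inhibitor of mTOR, a kinase that governs growth. The series title names cell size as a determinant of stem cell potential in aging, and the ages of the mice are not given in the labels. Each library was made from 10000 lineage-depleted cells sorted in G0 or G1 on staining for Sca-1, CD117, CD150 and CD48. Whether each library came from its own animal is not stated, so a p-value here reflects only library-to-library spread, which may be technical.

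An imprinted gene is transcribed mainly from the copy inherited from one parent, as set by DNA methylation at an imprinting control region. Many imprinted genes act on growth, and in HSCs the Dlk1-Meg3 and H19-Igf2 domains, Ndn and Cdkn1c have been tied to the quiescent state, in part through insulin-like growth factor (IGF) and mTOR signalling. The deposited values sum both parental copies, so which copy was transcribed was not measured.

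Libraries held 10133860 to 15328830 counts and 16570 to 20418 detected genes. All 12 HSC marker genes examined were detected in every library, among them those of the sort antigens CD117, CD150 and Sca-1. Kit, which encodes CD117, lay at 126 to 586 CPM (counts scaled to a common library size by TMM, edgeR's normalization), Slamf1 (CD150) at 14.1 to 60.2 and Ly6a (Sca-1) at 90.1 to 1001. RNA typical of other blood cells was present too, with neutrophil granule markers at 0.795% to 9.09% of the counts of single libraries and B cell markers at 0.00568% to 3.2%. The libraries least like the rest were vehicle 3, rapamycin 3 and vehicle 4, whose correlations with the others had medians of 0.866, 0.871 and 0.88.

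Levels of different genes were compared in TPM, a share of transcripts that corrects for their length. Dlk1, Ndn, Grb10 and Meg3 were the abundant members, with means of 27.7, 15.3, 12.8 and 8.48 TPM over 16 libraries. These values correspond to percentiles 68.7, 57, 53.4 and 45.5 among the 15308 genes that passed the low-count filter. Rian and Igf2r followed at 1.83 and 1.72 TPM, and Igf2, Plagl1, Mirg and H19 lay at 0.537, 0.264, 0.261 and 0.142 TPM. The spread across libraries was wide enough that neighbours in this order overlapped. Ndn led in the vehicle and rapamycin groups (19 ± 11.3 and 18.5 ± 5.23 TPM, SD, n = 4), while Dlk1 led in the palbociclib and combination groups (16 ± 16.2 and 79.6 ± 29.3 TPM). In the combination group all 4 Dlk1 values, 54 to 115 TPM, lay above the highest value of every other member, 21.6 TPM for Ndn. H19, Igf2 and Mirg did not pass the filter and are given by their counts, so 7 of the 10 members entered the test.

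**Figure D1:**
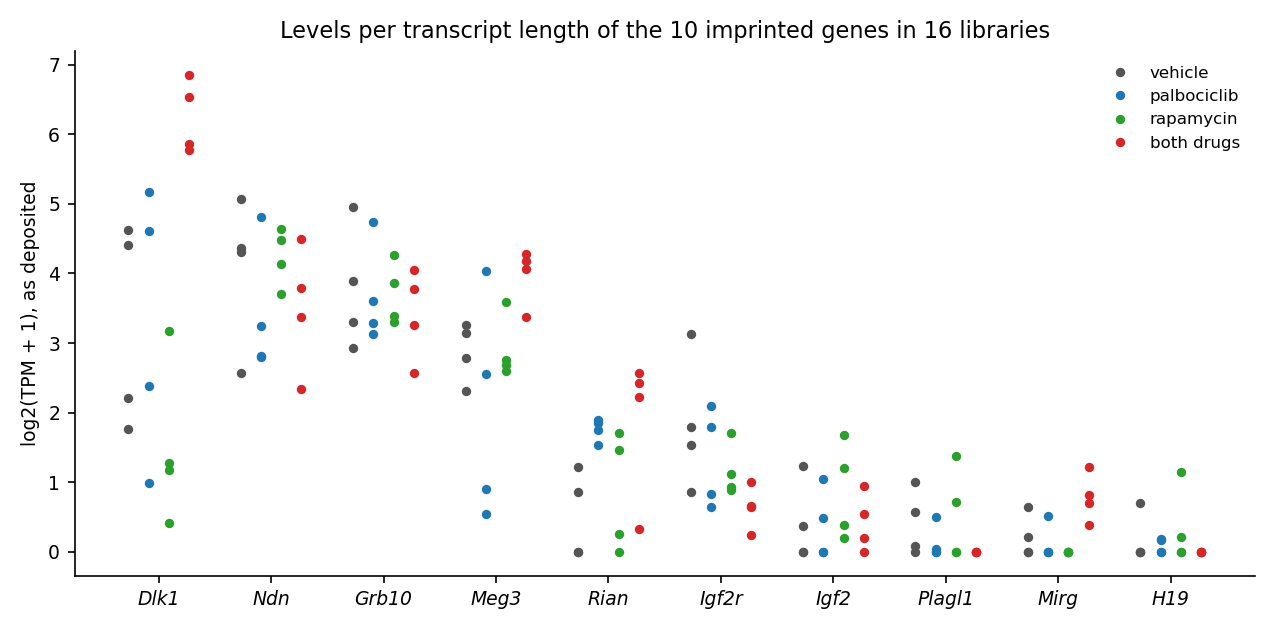
Level of each of the 10 imprinted genes, as the deposited log2(TPM + 1), with 1 point per library and 4 libraries per group. Dlk1 spans the widest range, from 0.33 TPM in rapamycin 3 to 115 TPM in combination 3, and H19, Mirg, Plagl1 and Igf2 lie near 0.

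No member passed an adjusted p of 0.05 in edgeR's quasi-likelihood test, whether a drug group was compared with vehicle, drug groups were compared with each other, or the interaction of the drugs was tested. The background of calls was as low. Of 15308 genes tested, 0% were called for palbociclib against vehicle, 0.00653% for rapamycin against vehicle and 0% for both drugs against vehicle. The share was 0% for adding rapamycin to palbociclib, 0.0327% for adding palbociclib to rapamycin, 0.00653% for rapamycin against palbociclib, 0% for the interaction and 0.0131% for any difference among the 4 groups. Plagl1 passed the filter only through the vehicle and rapamycin groups, so it is left out of the counts at an unadjusted p under 0.05. The other members stood at 0 of 6 for palbociclib (background 9.51%), 1 of 6 for rapamycin (7.65%) and 1 of 6 for both drugs against vehicle (10.5%). They stood at 3 of 6 for adding rapamycin to palbociclib (2.85%), 1 of 6 for adding palbociclib to rapamycin (9.79%), 1 of 6 for rapamycin against palbociclib (8.08%), 1 of 6 for the interaction (5.67%) and 1 of 6 for any difference (9.94%). Dlk1 was in every such count other than the first. Groups that did not overlap in CPM were counted over all 7 tested members, so even 1 member is a larger share than any background below. Against vehicle, palbociclib lay above in 1 of 7 members (background 2.85%) and below in 0 (2.19%). Rapamycin lay above and below in 0 (1.57% and 1.49%). Both drugs lay above in 2 of 7 (3.44%), Dlk1 and Meg3, which share a domain, and below in 0 (2.15%). Adding rapamycin to palbociclib gave 1 above (2.23%) and 0 below (1.61%), adding palbociclib to rapamycin 1 above (4.98%) and 1 below (3.87%), and rapamycin against palbociclib 0 above and 0 below (2.65% and 3.08%). The comparisons share control libraries, so these counts are not independent of each other. DESeq2 called 1 member, Dlk1, for adding palbociclib to rapamycin and for any difference among the groups, and 0 members in the other 6 comparisons. Limma on log2(TPM + 1) called Dlk1 for adding palbociclib to rapamycin and 0 members elsewhere.

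The Dlk1-Meg3 domain lies on chromosome 12 of the mouse build mm10 (GRCm38). Dlk1 (ENSMUSG00000040856, 109452823 to 109463336, plus strand) encodes a transmembrane and secreted protein with EGF-like repeats, related to Notch ligands, and is transcribed from the paternal copy. The maternal copy yields the long noncoding RNAs Meg3 (109541001 to 109571726), Rian (109603940 to 109661716) and Mirg (109729764 to 109749460), all on the plus strand. From the start of Dlk1 to the end of Mirg the members of the domain described here span 297 kb, with 77.7 kb between Dlk1 and Meg3. The RefSeq sequences of the 250 bases before the starts of Dlk1 and Meg3 are shown because these members have the highest mean TPM in the combination group. They run from 109452573 to 109452822 and from 109540746 to 109540995 on chromosome 12 of GRCm38.p6, plus strand. Capitals mark matches to 4 motifs, searched on both strands. The cAMP response element was spelled TGACGTCA. For the core promoter element known as the TATA box the letters searched were TATAAA. The box bound by the factor NF-Y was searched as CCAAT. The GC box, which binds Sp-family factors, was searched as GGGCGG.
Dlk1: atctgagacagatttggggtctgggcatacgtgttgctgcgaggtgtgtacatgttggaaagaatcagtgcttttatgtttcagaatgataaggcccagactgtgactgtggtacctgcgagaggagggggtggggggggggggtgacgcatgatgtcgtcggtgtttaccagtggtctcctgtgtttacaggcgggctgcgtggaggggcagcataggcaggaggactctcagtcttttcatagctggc
Meg3: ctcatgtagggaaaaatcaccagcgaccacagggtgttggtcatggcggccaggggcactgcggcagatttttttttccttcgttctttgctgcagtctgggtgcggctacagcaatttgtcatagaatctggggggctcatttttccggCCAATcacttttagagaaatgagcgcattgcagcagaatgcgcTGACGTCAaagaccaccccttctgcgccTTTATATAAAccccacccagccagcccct
The Meg3 stretch holds CCAAT with its first base 100 bases before the start, TGACGTCA at 57, and TATAAA on both strands at 29 and 25, the last 2 overlapping. The Dlk1 stretch holds none of the 4 motifs as spelled. Of 32851 promoters of this length, 1.55% hold TGACGTCA, 12.4% TATAAA, 33.8% CCAAT and 32.7% GGGCGG. The Dlk1 and Meg3 stretches have 8 and 10 CpG dinucleotides, against a median of 6 over all promoters, and 54.8% and 52.4% GC against 52.4%. RefSeq promoters were matched for 9 of the 10 members, 14 promoters in all. Meg3 has a second promoter among these, from 109545148 to 109545397, which is not shown. That stretch holds none of the 4 motifs and 0 CpG dinucleotides.

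Dlk1 had its highest levels in the combination group. The 4 combination libraries stood at 63.6, 65.1, 150 and 111 CPM, in replicate order (97.4 ± 41.3, SD, n = 4). Vehicle libraries stood at 4.21, 32.2, 2.72 and 32.1 CPM (17.8 ± 16.6), and palbociclib libraries at 0.978, 3.61, 28.4 and 43.6 CPM (19.1 ± 20.5). Rapamycin libraries stood at 8.44, 1.48, 0.398 and 1.58 CPM (2.98 ± 3.68). All 4 combination libraries were therefore above the other 12, an ordering that 33 of 15308 genes (0.216%) showed. Vehicle and palbociclib libraries each split into 2 high and 2 low values, and the rapamycin libraries lay in the range of the low ones or close to it.

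Against vehicle, the fitted Dlk1 level was 5.47-fold higher with both drugs (log2 fold change 2.45 ± 1.04 SE, edgeR adjusted p = 0.42, unadjusted p = 0.0311). Rapamycin alone gave -2.56 ± 1.07 in log2 (edgeR adjusted p = 0.601). Without single libraries this ran from -3.93, without rapamycin 1, to -2.10, and over all 24 alternatives it reached -1.74. The rapamycin libraries overlapped those of vehicle. Palbociclib alone gave 0.10 ± 0.99 (edgeR adjusted p = 0.986), and this value turned negative without vehicle 1, vehicle 3, palbociclib 3 or palbociclib 4 (lowest -0.71, without palbociclib 4). Adding palbociclib to rapamycin gave the widest difference, 5.01 ± 1.18 in log2 (edgeR unadjusted p = 0.00058, adjusted p = 0.163). For this contrast the adjusted p was 0.00145 with DESeq2, 0.0345 with limma on log2(TPM + 1) and 0.0272 when only the 8 libraries compared were fitted. Over all 24 alternatives it ran from 0.00145 to 0.427, and the log2 fold change from 4.65 to 6.38. Adding rapamycin to palbociclib gave 2.35 ± 1.03 (edgeR adjusted p = 1), with a range of 1.95 to 3.16 when single libraries were left out. The interaction, the excess of the combination over the sum of the single drugs on the log2 scale, was 4.91 ± 1.49 (edgeR unadjusted p = 0.00444, adjusted p = 0.605), and 4.45 to 6.27 without single libraries.

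**Figure D2:**
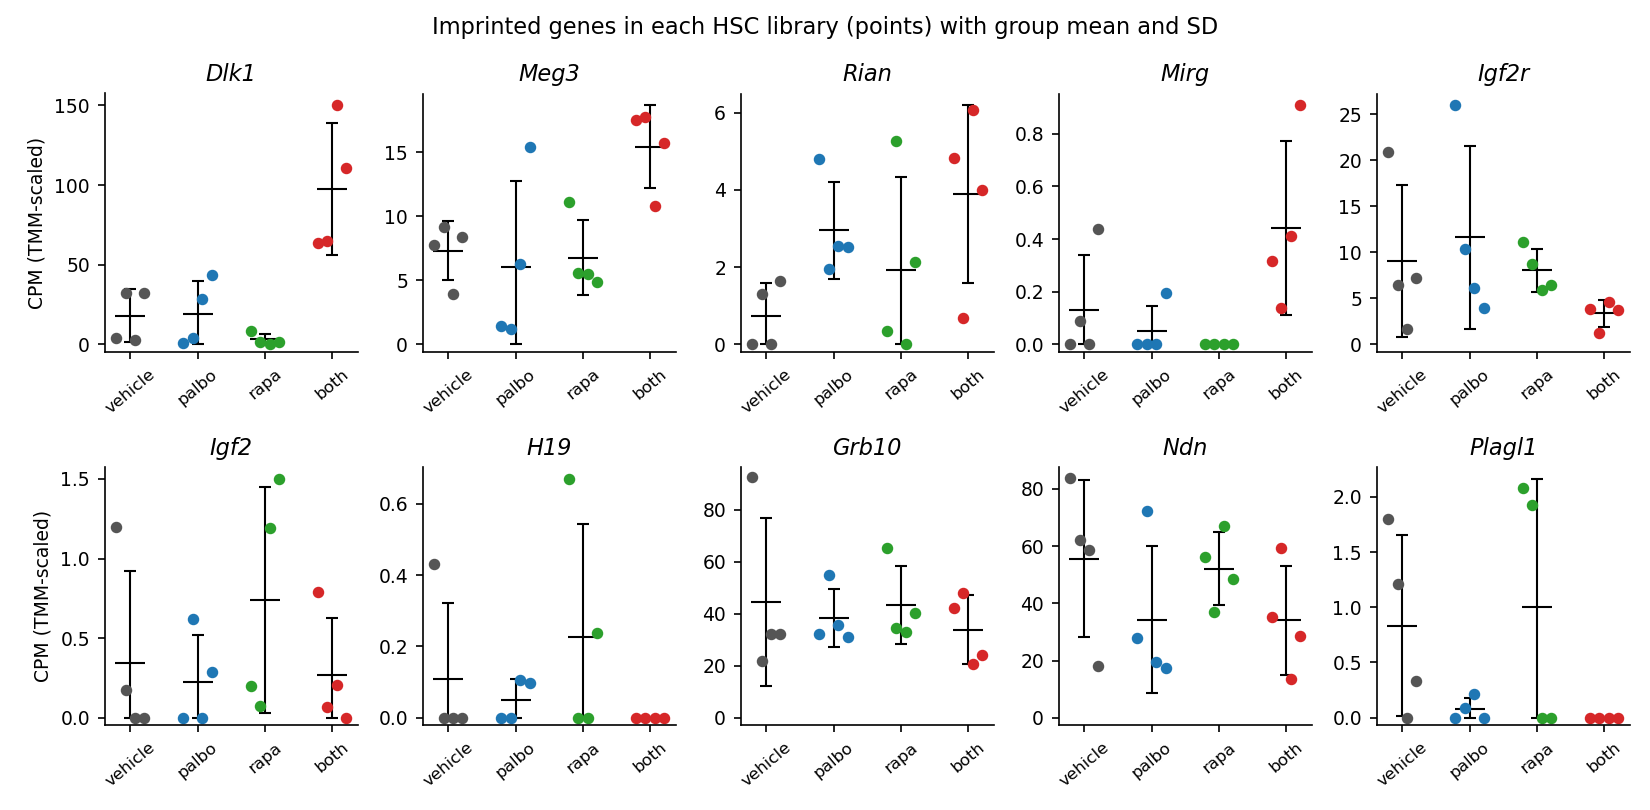
CPM of the 10 imprinted genes in each library, with points in replicate order within a group, the group mean as a horizontal line and the SD as whiskers that stop at 0 (n = 4). The combination libraries of Dlk1, at 63.6 to 150 CPM, lie above all others, and those of Igf2r, at 1.22 to 4.62 CPM, lie low.

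Meg3 (ENSMUSG00000021268), a noncoding RNA from the maternal copy of the domain, was also highest with both drugs. Combination libraries stood at 17.5, 17.7, 10.8 and 15.7 CPM (15.4 ± 3.24, SD, n = 4) and vehicle libraries at 7.73, 9.16, 3.95 and 8.33 CPM (7.29 ± 2.31). Palbociclib libraries stood at 1.42, 1.15, 6.24 and 15.4 CPM and rapamycin libraries at 11.1, 5.57, 5.5 and 4.89 CPM. The combination did not overlap vehicle, lying higher as 3.44% of genes did in this comparison, and it overlapped both single-drug groups by 1 library each. Meg3 was 2.12-fold higher than vehicle with both drugs, by 1.08 ± 0.63 in log2 (edgeR adjusted p = 0.593). It was higher by 1.35 ± 0.63 than with palbociclib alone (edgeR unadjusted p = 0.0474, adjusted p = 1; 2.41 without palbociclib 4 and 1.00 at the lowest without other single libraries) and by 1.19 ± 0.63 than with rapamycin alone (adjusted p = 0.569). Over 24 alternatives the fold change against vehicle ran from 0.87 to 1.22 in log2, and none gave a call.

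Rian (ENSMUSG00000097451), the host transcript of a series of C/D box small nucleolar RNAs, was near the detection limit. Its 4 vehicle libraries held 0, 1.3, 0 and 1.64 CPM, against 4.8, 1.94, 2.54 and 2.52 CPM with palbociclib. Palbociclib and vehicle did not overlap, as for 2.85% of genes in that direction (log2 fold change 2.01 ± 1.34, edgeR adjusted p = 0.681). Without single libraries this value ran from 1.59 to 2.77, and limma on log2(TPM + 1) gave 1.24. The rapamycin libraries, at 0.335, 5.27, 0 and 2.13 CPM, covered the range of both. Combination libraries held 4.82, 0.68, 6.06 and 3.99 CPM, with a fitted difference from vehicle of 2.41 ± 1.35 in log2 (edgeR adjusted p = 0.576), 1.98 to 3.16 without single libraries and 1.37 with limma on log2(TPM + 1).

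Mirg (ENSMUSG00000097391), the host of a microRNA cluster, had 27 counts in all. The combination libraries held 4, 2, 4 and 10 of these, the vehicle libraries 0, 1, 0 and 4, the palbociclib libraries 0, 0, 0 and 2, and the rapamycin libraries none. Pooled over 4 libraries, this is 0.416 CPM with both drugs. That is 7.44 times the 0.0559 CPM that a count of 0 allows in rapamycin (3 counts over the group, counting error only). The error of the combination value is left out, so this ratio is not a lower bound. In the fit without the filter on low counts, Mirg had an unadjusted p of 0.0091 and an adjusted p of 0.527 for adding palbociclib to rapamycin in edgeR. Dlk1, Meg3, Rian and Mirg each had their highest group mean in the combination, and the share of all genes with this ordering was not computed. Of the 4, only Dlk1 stayed clear of rapamycin. Meg3 and Rian did not follow each other from library to library (r = 0.04, rho = 0.14 in log2 CPM over 16 libraries). For Mirg, the 0.136 CPM of combination 2 lay under the 0.201 to 0.239 CPM that a count of 0 allows in single rapamycin libraries.

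The tested genes on either side of the domain had no shared direction. Genes within 1000 kb of the span from Dlk1 to Mirg were taken. Begain, the nearest tested gene upstream, is itself in the list of other imprinted genes. It averaged 1.37 CPM in vehicle and 2.05 CPM in the combination (log2 fold change 0.59, edgeR unadjusted p = 0.439). Wdr25 gave -0.60 and Yy1, a zinc finger factor gene, 0.03. Downstream, Ppp2r5c, a subunit gene of protein phosphatase 2A, gave 0.08, Dync1h1 -0.18, Hsp90aa1 0.22 and Wdr20 0.07. The lowest value was that of Evl, an actin regulator gene, at -2.45 (edgeR unadjusted p = 0.00719), where vehicle averaged 19.5 CPM and the 3 drug groups 4.48, 4.95 and 3.57 CPM. Between the combination and rapamycin, Wars, a tRNA synthetase gene, gave 0.55 (edgeR unadjusted p = 0.00473) and Wdr25 -1.17 (unadjusted p = 0.0289). Degs2, Slc25a47 and Slc25a29 gave 1.95, 1.68 and 0.82, and Evl, Yy1 and Begain -0.47, -0.21 and -0.12. Rtl1, the other paternally transcribed gene between Meg3 and Rian, lay under the filter at 0.272 CPM in the combination and 0 in vehicle.

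**Figure D3:**
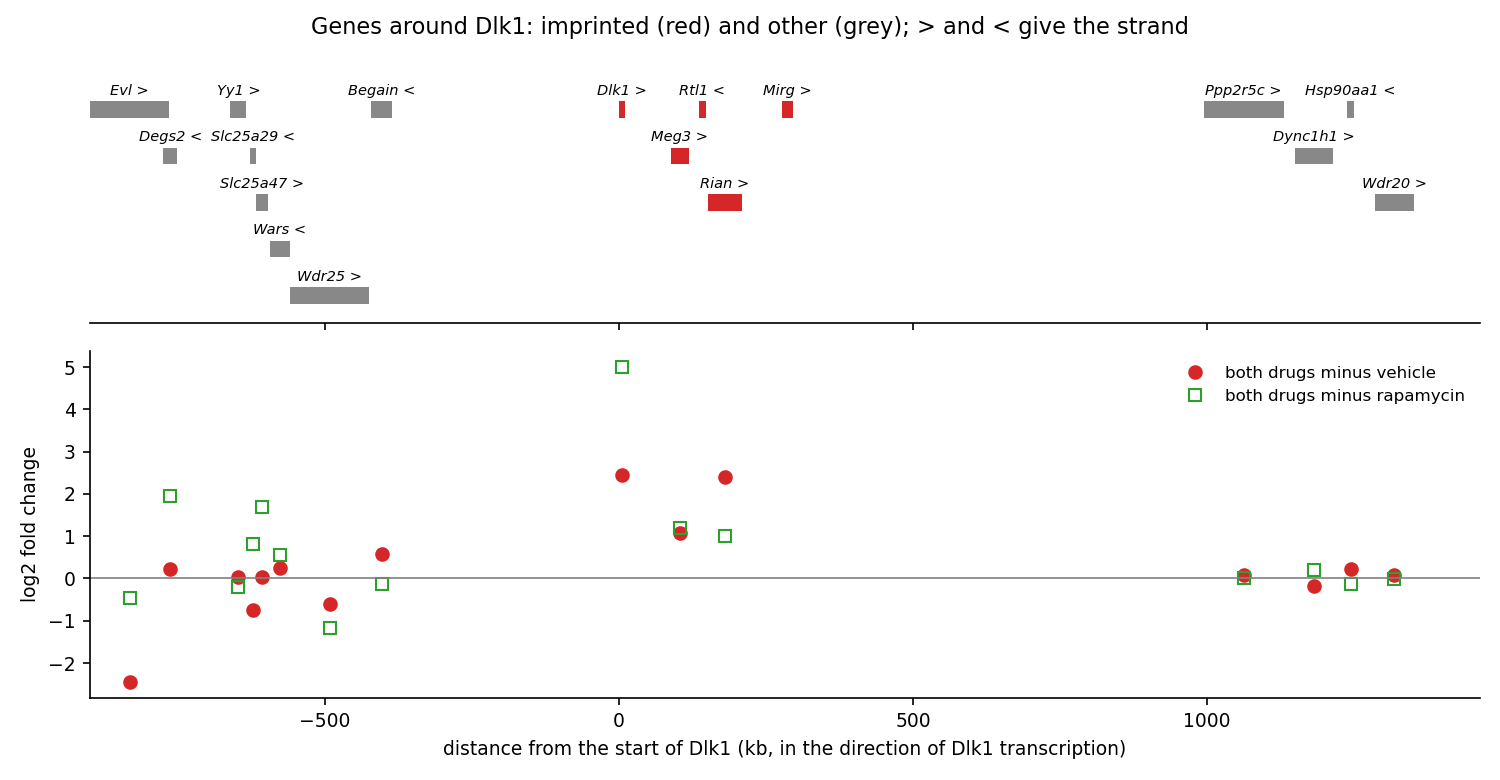
Genes on either side of Dlk1 by distance from its start in kb (upper panel) and the log2 fold change of each tested gene at its midpoint (lower panel), for both drugs minus vehicle and both drugs minus rapamycin; Rtl1 and Mirg, under the filter, have no point. Dlk1 stands at 2.45 and 5.01, and the 4 genes downstream of the domain lie between -0.18 and 0.22. Begain, drawn in grey, is also in the list of other imprinted genes.

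Dlk1 levels left a gap with no library between 8.44 and 28.4 CPM. The 8 libraries above it were the 4 combination libraries, vehicle 2 and 4 and palbociclib 3 and 4. The same 8 libraries were the highest in Ly6a, the gene of the sort antigen Sca-1, at 378 to 1001 CPM, against 90.1 to 204 CPM in the other 8. Ly6a was set beside Dlk1 after its values were seen. With 2 separate sets of libraries no pooled correlation is given. Within the upper 8 libraries the correlation of Dlk1 and Ly6a in log2 CPM was r = 0.32 (Spearman's rho = 0.36) and within the lower 8 it was r = 0.17 (rho = 0.33), given as descriptions. Meg3 overlapped between the sets, at 6.24 to 17.7 and 1.15 to 11.1 CPM, with r = 0.55 (rho = 0.69) and r = 0.28 (rho = 0.36) against Dlk1 within them. By group, Ly6a averaged 653 ± 125 CPM in the combination, 454 ± 409 in vehicle, 296 ± 157 in palbociclib and 173 ± 29.8 in rapamycin libraries (SD, n = 4). Its log2 fold change for adding palbociclib to rapamycin was 1.92 ± 0.54 (edgeR unadjusted p = 0.00272, adjusted p = 0.265). Kit lay between 190 and 394 CPM in the combination, 126 and 398 CPM in vehicle and 378 and 586 CPM in rapamycin libraries, the group of lowest Dlk1 (rapamycin against vehicle 0.95 ± 0.34 in log2, edgeR unadjusted p = 0.0118, adjusted p = 0.519). Slamf1 overlapped between the combination, at 21 to 38 CPM, and rapamycin, at 14.1 to 32.6 CPM. The gene of the fourth sort antigen, CD48, was not examined.

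Of the marker lists for other cells, only the erythroid list did not overlap between the combination and rapamycin libraries. Neutrophil granule markers, at 1% to 6.06% and 0.795% to 5.71% of counts, overlapped between these groups. So did the B cell, T and NK cell, megakaryocyte and platelet, and stromal and endothelial markers. The 10 erythroid markers summed to 0.0125% to 0.046% of counts in the combination libraries, 0.0651% to 0.192% in rapamycin, 0.0311% to 0.165% in vehicle and 0.0108% to 0.123% in palbociclib libraries. All 10 passed the filter and none was at 0 throughout a group. Dlk1 is known as a marker of preadipocytes and some stromal cells. The 12 stromal and endothelial markers, of which 9 passed the filter and Col3a1 was at 0 in all 4 palbociclib libraries, summed to 0.00579% to 0.0355% in the combination and 0.0121% to 0.0466% in rapamycin libraries, the group with the lowest Dlk1. The part of these cells, and of the difference in Ly6a, in the Dlk1 levels was not tested. In RNA pooled from many sorted cells, a change in the share of cells with a transcript and a change in RNA per cell cannot be told apart.

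**Figure D4:**
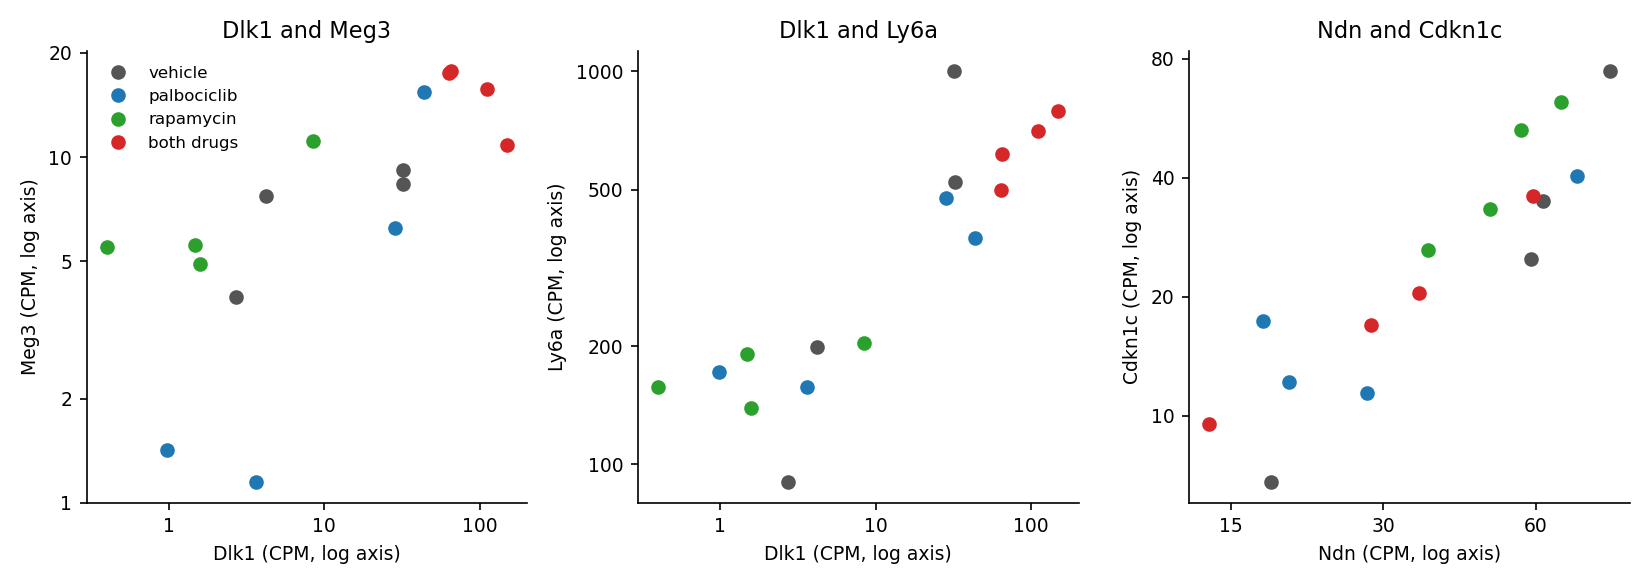
CPM of Dlk1 against Meg3, Dlk1 against Ly6a and Ndn against Cdkn1c on log axes, with 1 point per library coloured by group. In the middle panel 8 libraries lie at or above 28.4 CPM of Dlk1 and 378 CPM of Ly6a and 8 lie at or under 8.44 and 204 CPM.

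Igf2, H19 and Igf2r belong to the IGF arm of the imprinted genes. Igf2 (ENSMUSG00000048583, chromosome 7, 142650766 to 142666816, minus strand) encodes a growth factor and is paternally transcribed. H19 (ENSMUSG00000000031, chromosome 7, 142575529 to 142578143, minus strand), a maternal noncoding RNA 72.6 kb away, has been tied to HSC quiescence through its microRNA. Both lay near 0 in these libraries. Igf2 had 77 counts in all and 0 in 5 of 16 libraries, with 14, 2, 0 and 0 in vehicle, 0, 7, 0 and 3 in palbociclib, 3, 1, 15 and 19 in rapamycin and 10, 1, 2 and 0 in combination libraries. H19 had 20 counts, of which 5 were in vehicle 1, 10 in rapamycin 1, 3 in rapamycin 4 and 1 each in palbociclib 3 and 4. It was at 0 in 11 libraries, including all 4 of the combination, where a count of 0 allows 0.194 to 0.329 CPM per library over the series. Pooled over a group, H19 had 0.242 CPM with rapamycin, and 10 of those 13 counts came from rapamycin 1. That is 3.88 times what a count of 0 allows in the combination (3 counts over the group, counting error only). The error of the rapamycin value is left out, so this ratio is not a lower bound. In the fit without the filter, adding palbociclib to rapamycin gave H19 an unadjusted p of 0.0344 and an adjusted p of 0.624 in edgeR. For Igf2 the smallest unadjusted p of that fit over the 8 comparisons was 0.318 (edgeR adjusted p = 0.744).

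The microRNA genes nested in the members carried almost no counts. Of 22 such genes in H19, Igf2, Meg3, Rian and Mirg, 21 were at 0 in all 16 libraries, and Mir1906-1 in Meg3 had 5 counts. Mature microRNAs are shorter than the fragments of a standard RNA library, and their levels were not measured here. RefSeq (GRCm38.p6) lists 39 mature microRNAs inside these 5 hosts. The products of H19 are shown because that host was at 0 in the combination, and those of miR-453 and miR-496a because they are the only ones of the 39 to share a seed. Capitals mark the seed, bases 2 to 8.
mmu-miR-675-5p: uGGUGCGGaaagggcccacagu
mmu-miR-675-3p: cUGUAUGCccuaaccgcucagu
mmu-miR-453: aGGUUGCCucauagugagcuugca
mmu-miR-496a-5p: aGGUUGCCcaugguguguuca
The first pair lies in H19 on chromosome 7 (142577112 to 142577133 and 142577078 to 142577099, minus strand). The second pair lies in Mirg on chromosome 12 (109735669 to 109735692 and 109739132 to 109739152, plus strand) and has the seed GGUUGCC in common.

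Igf2r (ENSMUSG00000023830, chromosome 17, 12682406 to 12769664, minus strand) encodes the receptor that carries IGF2 to the lysosome and so limits it. It was lowest with both drugs, at 3.87, 1.22, 4.62 and 3.72 CPM (3.36 ± 1.48, SD, n = 4). Vehicle libraries stood at 20.9, 6.48, 1.68 and 7.23 CPM, palbociclib libraries at 26, 10.3, 6.14 and 3.97 CPM and rapamycin libraries at 11.1, 8.68, 5.89 and 6.39 CPM. In CPM the combination lay under all rapamycin libraries, as 3.87% of genes did, and overlapped vehicle and palbociclib. In TPM it overlapped rapamycin too, with combination 4 at 1.01 and rapamycin 3 and 4 at 0.86 and 0.9. Adding rapamycin to palbociclib gave -1.79 ± 0.69 in log2 (edgeR unadjusted p = 0.0193, adjusted p = 1), and -1.02 without palbociclib 1. Both drugs against vehicle gave -1.44 ± 0.68 (edgeR adjusted p = 0.484), and -0.61 without vehicle 1. Palbociclib alone gave 0.36 ± 0.67, which was -0.41 without palbociclib 1, and rapamycin alone gave -0.18 ± 0.67, which was 0.64 without vehicle 1. In TPM the palbociclib group lay lower than vehicle, at 1.77 ± 1.32 against 3.24 ± 3.1, so for that contrast the 2 deposited tables differ in direction. Airn, the noncoding RNA transcribed across Igf2r from the other strand, had 136 counts in all. Strandedness of the counting was not stated, so reads from their overlap cannot be assigned with certainty.

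Grb10 (ENSMUSG00000020176, chromosome 11, 11930508 to 12038683, minus strand) encodes an adaptor that damps signalling from the insulin and IGF1 receptors and is a target of mTOR complex 1. It was the steadiest member, with a 4.44-fold range over 16 libraries. Vehicle libraries held 92.5, 21.9, 32.1 and 32.1 CPM, palbociclib 32.1, 54.9, 35.6 and 31.2, rapamycin 65.5, 34.5, 33.1 and 40.4, and the combination 42.3, 48, 20.8 and 24.3 CPM. All groups overlapped. Against vehicle the log2 fold changes were -0.22 ± 0.41 for palbociclib, -0.04 ± 0.41 for rapamycin and -0.40 ± 0.41 for both drugs (edgeR adjusted p = 0.905, 0.998 and 0.814), and each turned positive without vehicle 1. Across libraries Grb10 was lower where neutrophil granule markers took more of the counts (r = -0.76, rho = -0.70 over 16 libraries, -0.84 after removing group means, and -0.65 without vehicle 1 and rapamycin 1). The 4 vehicle libraries spanned 1.21% to 6.26% in that share. Of the marker lists this one had the r of largest size for Grb10, and it was not the only one. T and NK cell markers gave r = -0.68, B cell markers -0.51 and HSC markers 0.57.

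The wider IGF and insulin signal chain gave 0 calls in 19 tested of 24 listed genes in all 8 comparisons by edgeR. At an unadjusted p under 0.05, 0 were higher and 1 lower with palbociclib, 2 higher and 1 lower with rapamycin, and 1 higher and 1 lower with both drugs against vehicle. Over all genes, 9.51%, 7.65% and 10.5% passed this threshold in either direction. Median log2 fold changes of the 19 were -0.04, 0.27 and 0.05, beside -0.03, -0.01 and -0.02 over all genes. Igf1r, the receptor through which IGF1 and IGF2 act, averaged 50.7 ± 11.3 CPM with rapamycin, 34.2 ± 13.4 in vehicle, 27.1 ± 6.45 with palbociclib and 27.2 ± 8.75 with both drugs (SD, n = 4). Rapamycin libraries, at 39.1 to 63.7 CPM, lay above all palbociclib libraries, at 19.5 to 34.9 CPM, as 2.65% of genes did, with a log2 difference of 0.90 ± 0.31 (edgeR adjusted p = 0.516). Igfbp3, which encodes a binding protein of the IGFs, stood at 24.3, 0, 9.86 and 17.2 CPM in the combination and 0, 0.951, 0 and 0 CPM in vehicle libraries. Since the filter kept Igfbp3 through the drug groups, where it was high, no p is given for it. These 2 genes and Airn were chosen after their values were seen.

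Ndn (ENSMUSG00000033585, chromosome 7, 62346569 to 62350262, plus strand) encodes necdin, a growth suppressor of the Prader-Willi region that binds E2F factors and p53. Vehicle libraries stood at 83.9, 62.1, 58.6 and 18 CPM (55.6 ± 27.5, SD, n = 4) and rapamycin libraries at 56.1, 36.8, 67.1 and 48.6 CPM (52.2 ± 12.8). Palbociclib libraries stood at 27.9, 72.2, 19.5 and 17.4 CPM and combination libraries at 35.2, 59.3, 13.6 and 28.4 CPM, with means of 34.3 ± 25.7 and 34.1 ± 19.1. The 2 groups that received palbociclib had the lower means, and all 4 groups overlapped. The log2 fold changes against vehicle were -0.70 ± 0.51 for palbociclib, -0.09 ± 0.50 for rapamycin and -0.70 ± 0.51 for both drugs (edgeR adjusted p = 0.717, 0.993 and 0.687). Without single libraries the palbociclib value ran from -1.37, without palbociclib 2, to -0.43, without vehicle 1, and that of both drugs from -1.11, without combination 2, to -0.44, without vehicle 1 or combination 3.

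Cdkn1c, the imprinted gene of the cell cycle inhibitor p57, followed Ndn from library to library and was chosen after its values were seen. Their correlation in log2 CPM over 16 libraries was r = 0.91 (rho = 0.91), 0.91 after removing group means and 0.93 without the 2 libraries farthest from the median of Ndn. Cdkn1c averaged 35.3 ± 28.6 CPM in vehicle, 20.4 ± 13.7 with palbociclib, 43.7 ± 16.7 with rapamycin and 20.7 ± 11.1 with both drugs (SD, n = 4). For adding palbociclib to rapamycin it gave a log2 fold change of -1.08 ± 0.59 (edgeR adjusted p = 0.592). Ndn was lower where B cell markers took more of the counts (r = -0.64, rho = -0.64, -0.79 after removing group means, and -0.61 without the same 2 libraries). Of the marker lists this one had the r of largest size for Ndn. HSC markers gave r = 0.61 and neutrophil granule markers -0.51. Vehicle 4, with the lowest Ndn and Cdkn1c of its group (18 and 6.79 CPM), was among the 3 libraries of lowest correlation with the rest.

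Plagl1 (ENSMUSG00000019817, chromosome 10, 13060504 to 13131694, plus strand) encodes the zinc finger factor ZAC1, which arrests the cell cycle and regulates other imprinted genes. It passed the filter through the vehicle and rapamycin groups alone. Vehicle libraries held 21, 14, 0 and 3 counts, rapamycin libraries 31, 26, 0 and 0, palbociclib libraries 0, 1, 2 and 0, and combination libraries 0 in all 4. Pooled over a group, vehicle had 0.795 CPM and rapamycin 1.06 CPM. These are 12.8 and 17 times the 0.0623 CPM that a count of 0 allows in the combination (3 counts over the group, counting error only). The error of the vehicle and rapamycin values is left out, so these ratios are not lower bounds. Both high groups contained libraries at 0. Since the filter kept Plagl1 through its high groups, no p is given for it.

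**Figure D5:**
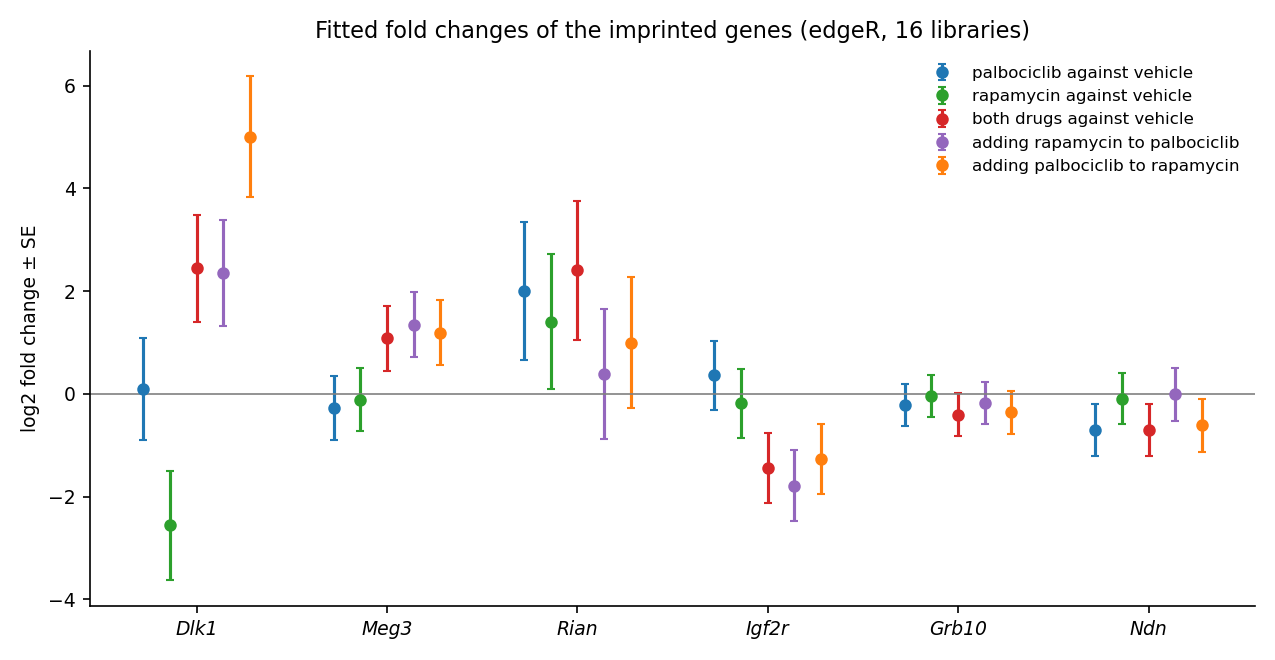
Fitted log2 fold changes with SE for 6 of the imprinted genes in 5 comparisons (edgeR over 16 libraries); Plagl1 is left out because the combination libraries held 0 counts of it. Dlk1 reaches 5.01 ± 1.18 for adding palbociclib to rapamycin, the values of Igf2r with both drugs lie under 0, and those of Grb10 lie between -0.40 and -0.04.

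Beyond the 10, a list of 62 other imprinted genes was examined, of which 44 passed the filter and 5 were at 0 in every library. None was called in any of the 8 comparisons by edgeR. At an unadjusted p under 0.05, 3 were higher and 1 lower with palbociclib, 3 higher and 0 lower with rapamycin, and 5 higher and 1 lower with both drugs against vehicle. Over all genes, 9.51%, 7.65% and 10.5% passed this threshold in either direction. Median log2 fold changes of the 44 were -0.14, 0.00 and 0.03, beside -0.03, -0.01 and -0.02 over all genes. The most abundant were Cd81, Tspan32 and Gnas, with means of 547, 464 and 419 TPM, followed by Commd1, Nap1l4 and H13 at 170, 155 and 151 TPM. Whether the listed genes are transcribed mainly from 1 parental copy in HSCs was not measured. Commd1 had the smallest p against vehicle for palbociclib, at 85.6 ± 5.9 CPM against 57.5 ± 9.92 (SD, n = 4), with no overlap (log2 fold change 0.57 ± 0.15, edgeR adjusted p = 0.272). Asb4 averaged 10.1 ± 2.13 CPM with rapamycin against 3.01 ± 2.04 in vehicle, also with no overlap (1.74 ± 0.62, adjusted p = 0.526). The background for such an ordering was 2.85% in the first and 1.57% in the second comparison. Mest held 22, 13, 2 and 19 counts in the combination libraries and 1 count over the 4 vehicle libraries. It passed the filter through the drug groups alone, so no p is given for it.

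Of 14 genes that establish or keep imprints, 12 were tested and 0 called in the 8 comparisons by edgeR. At an unadjusted p under 0.05, 3 were higher with palbociclib, 2 with rapamycin and 1 with both drugs against vehicle, and 0 were lower. Over all genes, 9.51%, 7.65% and 10.5% passed this threshold in either direction. Median log2 fold changes of the 12 were 0.16, 0.40 and 0.09, beside -0.03, -0.01 and -0.02 over all genes. Uhrf1, which brings the maintenance methyltransferase to replicating DNA, had the smallest p with palbociclib. It averaged 219 ± 25.3 CPM with palbociclib, 158 ± 51.4 with rapamycin, 174 ± 35.4 with both drugs and 112 ± 30.4 in vehicle libraries (SD, n = 4). Its log2 fold change was 0.96 ± 0.23 with palbociclib (edgeR unadjusted p = 0.000746, adjusted p = 0.229) and 0.63 ± 0.23 with both drugs (adjusted p = 0.339). It was chosen after its values were seen, as was Ctcf, the insulator factor of the H19-Igf2 control region, which gave 0.41 ± 0.16 with rapamycin (edgeR adjusted p = 0.546).

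For each tested member, the genes most like it were taken as the 3 with the highest Pearson correlation of log2 CPM over 16 libraries, among 10144 candidates with a mean of at least 5 CPM. These are descriptions of the same libraries, which share depth and the RNA of other blood cells. For Dlk1 they were Lrrc66 (r = 0.93), Oas1a (0.91) and Muc13 (0.90), with the gap in Dlk1 levels entering each value. For Meg3 they were Snx24 (0.92), Skil (0.84) and Znrf1 (0.81), and for Rian Osbpl2 (0.89), Ddx3x (0.88) and Ptbp3 (0.88). Ndn was matched by Ptov1 (0.94), Gng11 (0.94) and Tal1 (0.93), and Grb10 by Ccdc8 (0.82), Bex4 (0.81) and Ubqln4 (0.80). Igf2r was matched by Braf (0.84), Polg (0.82) and Espl1 (0.82), and Plagl1, at 0 in 9 libraries, by Sft2d3 (0.84), Rpl38 (0.79) and Polr2i (0.78). Among the members themselves, Grb10 and Ndn gave r = 0.58 (rho = 0.55), and 0.45 without vehicle 1 and rapamycin 1. Rian and Ndn gave r = -0.68 (rho = -0.71), and -0.60 without vehicle 1 and vehicle 3. The 4 tested members outside the Dlk1-Meg3 domain lie on 4 different chromosomes.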

How the data were processed

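RNA was sequenced with a low-input kit, per the labels' protocols. The submitters' processing notes name the build mm10 and the tools RSEM 1.3.0, SAMtools 1.3 and STAR 2.5.3a without their roles. Strand and annotation release were not given in the sources used here. One deposited table holds expected counts, all of them whole numbers, so rounding changed nothing. For the same libraries the authors deposited log2(TPM + 1) values, which were turned back to TPM. Symbols and coordinates came from GENCODE M21 on GRCm38 for 50462 of 50686 genes, and sequences from RefSeq on GRCm38.p6.

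The main test used edgeR 4.0.16 under R 4.3.3. The filterByExpr filter (minimum count 10, minimum total 15) kept 15308 genes. TMM factors ran from 0.889 to 1.14. A mean per group was fitted over 16 libraries with 12 residual degrees of freedom, each contrast was put to the quasi-likelihood F test, and p-values were adjusted by Benjamini-Hochberg over all tested genes. The biological coefficient of variation was 55.8%. SE is the size of the log2 fold change over the square root of F. Groups came from sample titles. Between libraries of a group, r of log2 CPM was 0.843 to 0.958 over 24 pairs, and no pair agreed within sampling noise (lowest chi-square per degree of freedom 23.6). Alternatives were DESeq2 1.42.0, upper-quartile scaling, no filter, limma 3.58.1 on log2(TPM + 1) and log2(TPM + 0.1), a replicate block, only the groups compared, and leaving out libraries. The procedure was tested on simulated counts. Total counts of at least 10133860 leave counting error small for Ndn and Grb10. It is larger for Dlk1, with 20, 5 and 20 counts in rapamycin 2, 3 and 4. The same holds for Meg3, with 16 and 13 counts in palbociclib 1 and 2. Intervals and limits at 0 cover counting error only.

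The members, the other gene lists and the tests were chosen with earlier results of these data known. Most genes outside the members were named by a rule: genes of the other lists if called, of the other imprinted genes the 6 of highest mean TPM and the 3 of smallest p against vehicle in each comparison, and the 3 genes most correlated with each tested member. Cdkn1c, Airn, Igf1r, Igfbp3, Uhrf1, Ctcf and Ly6a were chosen after their values were seen, and neighbours of Dlk1 by position. Rasgrf1, Copg2 and Inpp5f, also taken by this rule, are given under the other observations.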

Additional observations from a re-analysis of the deposited data

Results flagged for a closer look

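In 27 groups of 4 libraries, 1 per tested member and group with counts, the highest or lowest library was compared with the others against Dixon's 95% limit for 4 values. By chance about 1 group in 20 passes that limit, and 3 did. Rapamycin 1 stood apart in Meg3, at 11.1 CPM against 4.89 to 5.57 CPM in the other 3 rapamycin libraries, and in Dlk1, at 8.44 CPM against 0.398 to 1.58 CPM. Both genes lie in the same domain on chromosome 12, and the library was the highest of its group in each. Vehicle 1 stood apart in Grb10, at 92.5 CPM against 21.9 to 32.1 CPM in the other vehicle libraries. Whether depth or the makeup of these 2 libraries entered into the values was not tested.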

How the results depend on the processing

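The tested members, 7 of the 10 in the main fit, gave 0 calls in all 8 comparisons by edgeR. They also gave 0 in every fit without 1 library and in the fit without vehicle 3, vehicle 4 and rapamycin 3 together. That last fit was chosen after seeing the data. Dlk1 was the 1 member called for adding palbociclib to rapamycin with DESeq2, limma on log2(TPM + 1) and only the groups compared, and 1 member was called for any difference with DESeq2 and with no low-count filter. Over all genes the edgeR calls, in the order palbociclib, rapamycin and both drugs against vehicle, adding rapamycin to palbociclib, adding palbociclib to rapamycin, rapamycin against palbociclib, the interaction and any difference, were 0, 1, 0, 0, 5, 1, 0 and 2. DESeq2 gave 112, 86, 184, 21, 168, 90, 39 and 317. Adding palbociclib to rapamycin gave 16 with no filter, 13 and 12 with limma on log2(TPM + 1) and log2(TPM + 0.1), and 56 with only the groups compared. No filter gave 4 for the interaction and 96 for any difference, and both limma fits gave 1 for any difference and 0 for rapamycin against palbociclib. Rapamycin against vehicle gave 0 with limma on log2(TPM + 1) and, like rapamycin against palbociclib, 0 with only the groups compared. Without the 3 libraries, palbociclib and both drugs against vehicle gave 1 each, rapamycin against palbociclib 0 and the interaction 3. Without single libraries the ranges were 0 to 2 for rapamycin against vehicle and against palbociclib, 0 to 16 for adding palbociclib to rapamycin, 0 to 5 for the interaction and 0 to 14 for any difference. The causes of these differences were not tested.

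Same-numbered libraries of different groups correlated at -0.21 to 0.348 (median 0.0422) in their deviations from group means, with 7 of 24 pairs over 0.1, so the numbers were not taken as pairing. The replicate block gave 0 members called, and over all genes 1 for palbociclib against vehicle, 11 for adding palbociclib to rapamycin, 2 for rapamycin against palbociclib and 1 for any difference. With the block, log2 fold changes turned for rapamycin against vehicle in Igf2r (0.11), Grb10 (0.04), Ndn (0.10) and Plagl1 (-0.28), and for palbociclib against vehicle in Dlk1 (-0.07).

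Other log2 fold changes that turned were all single drugs against vehicle and uncalled, other than Grb10 with both drugs. For palbociclib, Igf2r (0.36; -0.41 to 1.18 without single libraries) was -0.49 and -0.73 in the limma fits with 1 and 0.1 added, -0.41 without palbociclib 1, and -0.23 without the 3 libraries. Dlk1 (0.10; -0.71 to 0.57) was -0.05 with 0.1 added, and -0.22, -0.25, -0.13 and -0.71 without vehicle 1, vehicle 3, palbociclib 3 and palbociclib 4. Meg3 (-0.27; -1.32 to 0.08) was 0.06 and 0.08 without palbociclib 1 and 2. For rapamycin, Meg3 (-0.11; -0.46 to 0.02) was 0.03 and 0.04 in the limma fits and 0.02 without vehicle 2 or rapamycin 4. Ndn (-0.09; -0.38 to 0.17) was 0.16 and 0.19 in the limma fits, and 0.17 and 0.04 without vehicle 1 and rapamycin 2. Igf2r (-0.18; -0.53 to 0.64) was 0.64 without vehicle 1. Plagl1 (0.26; -0.37 to 0.96) was -0.16, -0.37 and -0.25 without vehicle 3, rapamycin 1 and rapamycin 2, and -0.17 without the 3 libraries. Grb10 without vehicle 1 was 0.42 with palbociclib (lowest -0.44), 0.59 with rapamycin (lowest -0.31) and 0.24 with both drugs (lowest -0.62), and with rapamycin it was 0.05 and 0.07 without rapamycin 2 and 3. Depth limits H19, Igf2, Mirg, Rian and Plagl1, which lie at or near 0 counts in several libraries. It also limits Dlk1 in rapamycin 3, at 5 counts, and Meg3 in palbociclib 2, at 13 counts.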

Other observations

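Among the other imprinted genes, 3 that were among the smallest p against vehicle, and were not called, remain. Copg2, a coat protein gene of Golgi vesicles, averaged 76.5 ± 14.1 CPM with palbociclib and 51.3 ± 10 CPM in vehicle libraries (SD, n = 4; log2 fold change 0.57 ± 0.19 SE, edgeR adjusted p = 0.37). Inpp5f, an inositol phosphatase gene, averaged 3.98 ± 1.88 CPM with palbociclib and 12.3 ± 3.06 CPM in vehicle, with no overlap (-1.62 ± 0.58, edgeR adjusted p = 0.411). For a direction like this the share of all genes was 2.19%. Rasgrf1, a Ras exchange factor gene, averaged 1.43 ± 1.09 CPM with both drugs and 0.0274 ± 0.0548 CPM in vehicle. It passed the filter through the drug groups alone, so no p is given for it. Its vehicle libraries held 1 count in all, and 1 combination library was at 0, so the groups overlapped.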
